A study of Mus musculus with 18 samples.

Results

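Lipoprotein assembly and lipid uptake were followed in the mouse colon through 8 genes, Apob, Mttp, Apoa1, Apoa4, Apoe, Fabp1, Fabp2 and Cd36, each matched by name to 1 of the 52636 gene IDs listed in both deposited tables. The 8 genes were chosen by name with the deposited values and fold changes of these same libraries in view, so every comparison counts as used by the choice. Their values are therefore given as a description in sorted cells and crypts of all genotypes. Where a member was past the thresholds of the fit over all genes, this is stated as a count beside the share of all genes called, and nothing is read from it.

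Absorptive cells of the gut take up fatty acids, carry them in the cytoplasm on fatty acid-binding proteins, rebuild triglycerides in the endoplasmic reticulum and load them onto apolipoprotein B for export in chylomicrons. Apob encodes the structural protein of these particles and Mttp the transfer protein that loads lipid onto it. Apoa1, Apoa4 and Apoe encode exchangeable apolipoproteins of the particle surface, Fabp1 and Fabp2 the liver and intestinal fatty acid-binding proteins, and Cd36 a membrane receptor for long-chain fatty acids. The pathway is known best from the small intestine, where Apoa4, Fabp1 and Cd36 are abundant in enterocytes.

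RNA was sequenced from 6 samples of sorted colon epithelial cells and from 12 samples of isolated colon crypts, to ask what cells expressing the acetate and propionate receptor Olfr78 are and how the epithelium differs without it. Sorted cells were Epcam+ve/GFP-ve cells (2 samples of 1 WT mouse, thereafter Epcam+ve samples) and Epcam+ve/GFP+ve cells of heterozygous (HE) and knockout (KO) mice of the Olfr78-GFP line (2 pools each, every pool from 2 mice). The Olfr78-GFP allele is a knock-in whose reporter, GFP followed by an IRES and tauLacZ, takes the place of the receptor's protein-coding sequence, so the HE pools carry 1 disrupted copy and GFP marks cells in which the Olfr78 promoter is active. Crypts came from 2 WT and 5 KO mice of the same line, and from 3 control (eControl) and 2 epithelium-specific knockout (eKO) mice of the Vil1Cre/+-Olfr78fx line, in which Cre recombinase is driven by the Villin promoter of epithelial cells. The labels give no ages, and they give the Epcam+ve/GFP-ve samples the cell subtype enteroendocrine although these were sorted as general epithelium. They give the eKO library of mouse 2 the genotype WT/HO, the same as eControl mouse 2, where eKO mouse 1 is HE/HO. The titles were used to form groups.

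Values are reads of a gene per 20000000 reads of a library (CP20M). Reads on genes numbered 1499836 to 2237486 in the sorted samples except KO pool 1, which had 532704, and 6175306 to 10995342 in crypts. One read was worth 37.5 in KO pool 1, 8.94 to 13.3 in the other sorted samples and 1.82 to 3.24 in crypts. Olfr78 itself was 135 and 21 in Epcam+ve samples, 4822 and 4401 in HE pools and 977 and 837 in KO pools. In crypts it was 88 and 111 in WT, 7 to 42 in KO, 61 to 124 in eControl and 21 and 73 in eKO, and the 73 of the library labelled eKO 2 lay inside the eControl range. Enteroendocrine markers (10 genes such as Chga and Tph1) summed to 860224 and 1117900 in HE pools and to 608560 and 358362 in KO pools, against 12773 to 13169 in Epcam+ve samples, so the GFP+ve pools carried the markers of their gate. Colonocyte markers (8 genes such as Car1 and Slc26a3) were all present in every library.

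Apob and Fabp2 were the 2 most abundant members in every crypt library, so the 200 bases in front of their first annotated bases are shown (RefSeq promoter sequence, GRCm38.p6, plus strand). The Apob stretch is chr12:7977448-7977647 and the Fabp2 stretch is chr3:122894872-122895071. Capitals mark TATAAA, the TATA box, and CAAAG, letters held in common by motifs for HNF4 and for TCF/LEF factors, searched on both strands so that CTTTG is the same match.
Apob: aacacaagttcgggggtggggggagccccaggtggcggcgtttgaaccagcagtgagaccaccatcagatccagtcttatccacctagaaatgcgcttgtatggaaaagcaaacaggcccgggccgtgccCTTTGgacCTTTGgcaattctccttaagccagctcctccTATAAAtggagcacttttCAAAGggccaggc
Fabp2: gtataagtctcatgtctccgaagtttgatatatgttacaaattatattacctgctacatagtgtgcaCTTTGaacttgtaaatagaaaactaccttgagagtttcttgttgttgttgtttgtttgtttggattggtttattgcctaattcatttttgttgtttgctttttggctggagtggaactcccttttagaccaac

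The Apob stretch held TATAAA beginning 31 bases before its first transcribed base and 3 matches of CAAAG, which began 70, 62 and 13 bases before it. The Fabp2 stretch held 1 match of CAAAG, 133 bases before its start, and no TATAAA. Among 32851 mouse promoters, 40.3% held CAAAG and 10% held TATAAA in a window of the same length, so neither match is rare, and 5 and 3 of the 8 members held them. These matches are letters in a window and were not tested for binding.

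Each gene was placed on GRCm38 by the GENCODE annotation. Apob spans chr12:7977648-8016835 on the plus strand with 13934 exonic bases, and Mttp spans chr3:138089854-138144968 on the minus strand with 6206. Fabp2 lies on the same chromosome as Mttp, at chr3:122895072-122899506 on the plus strand, with 965 exonic bases. Apoa1 (chr9:46228580-46230466) and Apoa4 (chr9:46240696-46243459) are neighbours on the plus strand of chromosome 9, in a cluster that also holds Apoc3 and Apoa5. Apoe is at chr7:19696109-19699188 on the minus strand, Fabp1 at chr6:71199827-71205023 on the plus strand and Cd36 at chr5:17781690-17888801 on the minus strand.

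Compared per kilobase of exon, Fabp2 had the highest level of the 8 genes in every group. Its group mean was 6952 CP20M per kilobase in WT crypts, rank 121 of 34724 genes above 0, and 4419 in Epcam+ve samples, rank 196 of 24198. Apob came next in crypts, at 824 in WT and 334 in KO, where its long transcript had hidden the distance to Fabp2 in the unscaled values. In HE pools the 3 leading members were close to each other per kilobase, with 1194 for Fabp2, 1141 for Apoa1 and 965 for Apob, and the spread of Apoa1 between the pools was too wide to order them. Mttp and Apoe stayed between 15.1 and 40.9 per kilobase in all 7 groups.

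**Figure D1:**
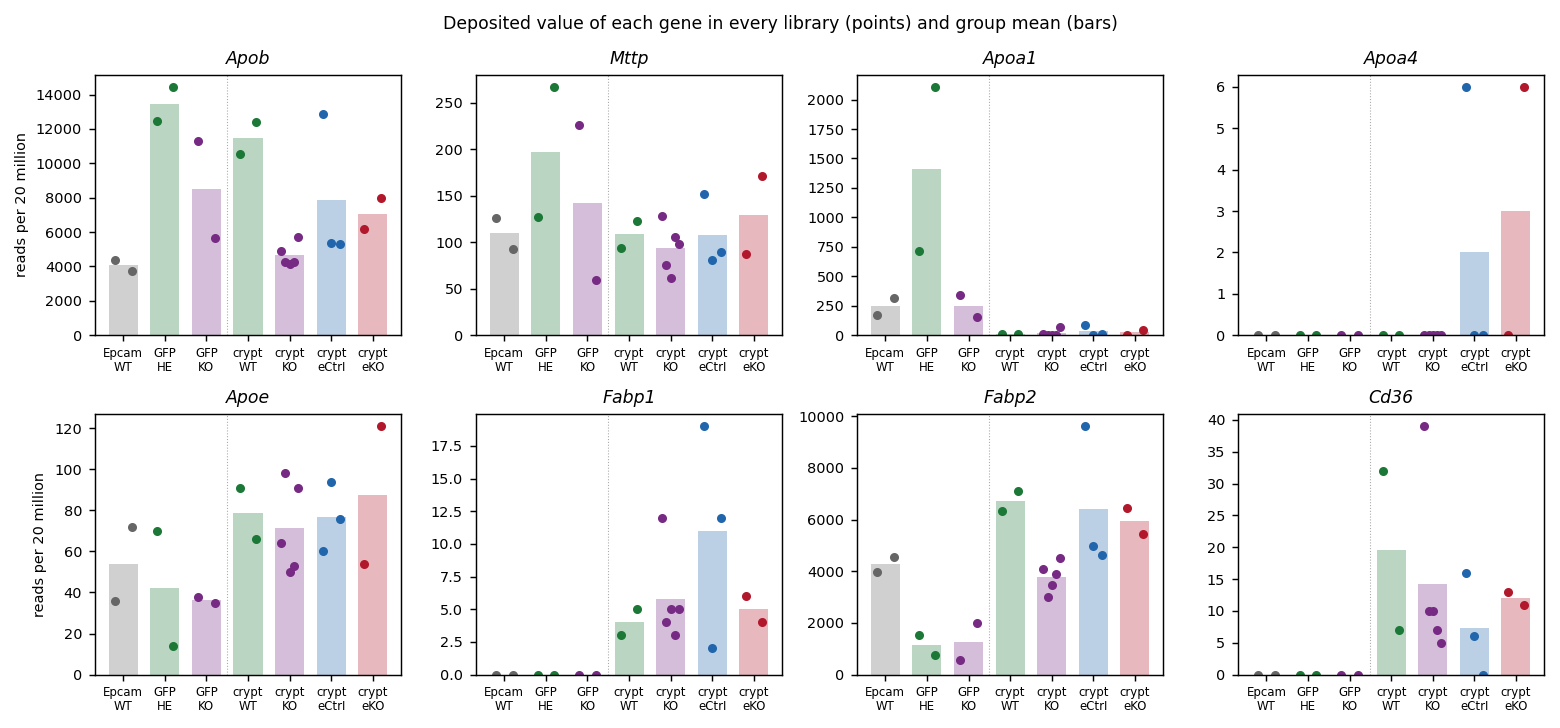
Deposited value (CP20M, linear axis from 0, each panel with its own scale) of each of the 8 genes in every library (points), with the group mean (bars), for sorted cells left of the dotted line and crypts right of it. Apob was at 3740 or more everywhere and Fabp2 at 564 or more, Mttp stayed between 59 and 267, and Apoa4, Fabp1 and Cd36 were at 0 in all 6 sorted libraries.

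The first question was which of these genes mark the Olfr78 cells. Apob, the particle scaffold, was 4398 and 3740 in Epcam+ve samples, 12462 and 14442 in HE pools and 11301 and 5671 in KO pools. Both kinds of GFP+ve pool lay above both Epcam+ve samples, and KO pool 2 lay closest to them. The mean of the HE pools, 13452 ± 1400 (SD, n = 2), was 3.31 times that of the Epcam+ve samples, 4069 ± 465 (SD, n = 2), a log2 fold change of 1.72 ± 0.18 (SE) on log2(value + 10). That of the KO pools, 8486 ± 3981 (SD, n = 2), was 2.09 times as high, a log2 fold change of 0.98 ± 0.38 (SE). The 2 comparisons share the Epcam+ve samples. These are 2 samples of 1 mouse, so their SD holds no variation between mice. The SEs of comparisons with them, here and below, count them as replicates. In such bulk samples, fewer cells of a type and less RNA per cell cannot be told apart.

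Fabp2, the intestinal carrier of fatty acids, went the other way between the sorts. It was 3987 and 4541 in Epcam+ve samples, 1531 and 774 in HE pools and 564 and 1988 in KO pools. All 4 GFP+ve pools lay below both Epcam+ve samples. The Epcam+ve mean was 3.70 times the HE mean and 3.34 times the KO mean, with log2 fold changes of -1.96 ± 0.30 (SE) and -1.99 ± 0.57 (SE) for the pools.

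Apoa1, the main protein of high-density lipoprotein, was 170 and 319 in Epcam+ve samples, 714 and 2107 in HE pools and 338 and 152 in KO pools. The HE pools lay above the other 4 libraries, and the KO pools straddled the Epcam+ve range. The HE mean was 5.77 times the Epcam+ve mean, a log2 fold change of 2.35 ± 0.51 (SE). The 2 HE pools differed from each other by more than the lower one differed from the Epcam+ve mean.

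Mttp, the lipid transfer protein, was 126 and 93 in Epcam+ve samples, 127 and 267 in HE pools and 226 and 59 in KO pools. The HE pools lay above the Epcam+ve samples by as little as 1 unit, and the KO pools spanned them. The log2 fold changes of Mttp were 0.72 ± 0.54 (SE) in HE and 0.11 ± 0.77 (SE) in KO pools. Apoe, a ligand of lipoprotein receptors, was 36 and 72, 70 and 14, and 38 and 35 in the same order, which is between 1 and 7 reads per library, and its groups overlapped.

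Apoa4, Fabp1 and Cd36 had no read in any of the 6 sorted libraries. A count of 0 allows up to 3 reads, which is 26.8 to 40 CP20M in these libraries and 113 in KO pool 1, an allowance for counting error only. At the thresholds of HE pools against Epcam+ve samples (adjusted p under 0.001 and a log2 fold change beyond 2), 1.75% of the 16355 genes tested were called, 1.58% higher and 0.171% lower, and 0 of the 5 members that passed the filter on low values were. Without HE pool 1, Apoa1 (3.12) and Fabp2 (-2.44) passed them, in a fit with 1195 genes called. The values of Apob, Apoa1 and Mttp did not overlap and were higher in HE pools, as for 30.4% of all genes tested, and those of Fabp2 were lower without overlap, as for 33.1%. For KO pools against Epcam+ve samples, limma called 0 of 15779 genes (0%), with 2925 at an unadjusted p under 0.05, while edgeR called 31 and DESeq2 238. Without overlap, 19.4% of genes were higher and 35.5% lower in KO pools, Apob and Fabp2 among them. Without KO pool 2, Fabp2 passed at -2.89, in a fit with 1753 genes called.

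Other genes of the pathway were read from 5 lists compiled by function, with earlier results of these data known. In the comparison of HE pools with Epcam+ve samples, 0 of 31 tested genes of assembly and export, 0 of 34 of fatty acid uptake and esterification, 0 of 32 of fatty acid oxidation and ketogenesis, 0 of 24 of cholesterol uptake and lipoprotein receptors and 0 of 30 transcription factors of intestinal lipid genes passed both thresholds. Of all 16355 genes 1.75% passed them. The oxidation list had the lowest median log2 fold change, -1.10 against -0.05 for all genes. Lower means in HE pools were found for 30 of its 32 genes, against 8559 of all 16355. Cpt1a, which admits long-chain fatty acids to mitochondria, had a log2 fold change of -0.63, and Ppara, a fatty acid-sensing nuclear receptor, one of -1.08.

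Within assembly and export, the neighbours of Apoa1 on chromosome 9 were at low values. Apoc3, an inhibitor of lipoprotein lipase, was 0 in both Epcam+ve samples and all 12 crypt libraries, 24 and 94 in HE pools and 38 and 35 in KO pools, which is 1 to 7 reads. Apoa5, named here after its values were seen, was 0 and 0 in Epcam+ve samples, 58 and 81 in HE pools and 38 and 0 in KO pools. Among sorted libraries it reached the minimum of 40 only in the HE pools, so it passed the filter through the group where it was high. Apoa5 missed the threshold for HE pools against Epcam+ve samples, and its values are given as a description. Apoa2 was at no more than 12 in any sorted library. Of genes of chylomicron export by vesicle, Sar1b, the vesicle coat GTPase lost in chylomicron retention disease, had a log2 fold change of -0.15 with groups that overlapped. Mia2, a cargo adaptor listed as Ctage5, had -0.48 and P4hb, the second subunit of the Mttp complex, had -0.58, and both were lower in HE pools without overlap.

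Of the uptake and esterification genes, 25 of 34 had lower means in HE pools, against 8559 of all 16355 genes. Log2 fold changes were -0.55 for Slc27a4, a fatty acid transporter, -1.10 for Acsl5, which activates fatty acids with coenzyme A, -0.42 and -0.46 for the triglyceride synthases Dgat1 and Dgat2, -0.93 for Fabp5 and -0.13 for Plin2, a lipid droplet coat protein. Fabp6, the bile acid-binding relative of Fabp2 in the ileum, was 501 and 134 in Epcam+ve samples and 12 and 14 in HE pools. Mogat2, which starts triglyceride synthesis from monoacylglycerol in enterocytes, stayed at 12 to 76 in all sorted libraries. Of the factors, Hnf4a had 7741 and 7489 in Epcam+ve samples and 5098 and 4681 in HE pools, and Hnf4g and Creb3l3 had log2 fold changes of -0.94 and -0.09. Gata4, which marks the proximal small intestine, had reads in 1 of the 6 sorted libraries.

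**Figure D2:**
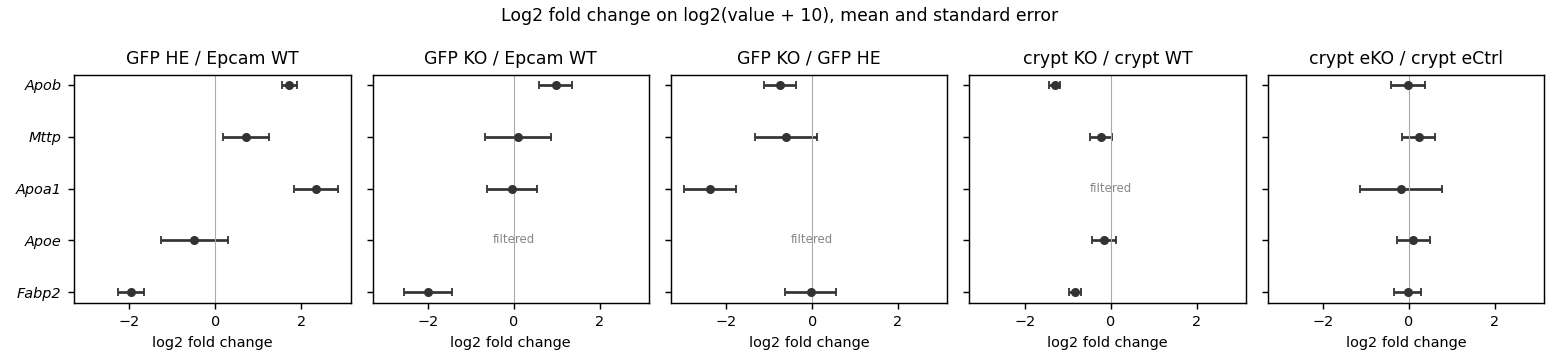
Log2 fold change on log2(value + 10) of the 5 members that passed the filter on low values in at least 1 comparison (points) with the standard error of the limma fit (bars), in 5 comparisons, where "filtered" marks a gene that did not pass. Apob lay at 1.72 and Fabp2 at -1.96 in HE pools against Epcam+ve samples, and both lay below 0 in KO against WT crypts and within 1 standard error of 0 in eKO against eControl crypts.

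The second question was whether GFP+ve cells differed in these genes without Olfr78. Apob was 11301 and 5671 in KO pools, below both HE pools (12462 and 14442), a log2 fold change of -0.74 ± 0.37 (SE). Apoa1 at 338 and 152 in KO pools lay below 714 and 2107 in HE pools, the HE mean being 5.76 times the KO mean, a log2 fold change of -2.38 ± 0.61 (SE). The KO values of Apoa1 rest on 9 and 13 reads. Among the 15961 genes at 40 or more in at least 2 of the 4 pools, 25.5% were lower and 8.73% higher in KO pools without overlap. Fabp2 and Mttp of the 2 kinds of pool overlapped, with log2 fold changes of -0.04 ± 0.60 (SE) and -0.61 ± 0.72 (SE).

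For KO against HE pools, limma called 0 of the 11892 genes above 40 in all 4 pools (0%), with 503 at an unadjusted p under 0.05, edgeR called 0 and DESeq2 8. The criterion of the study, which asks for a difference of means beyond 2 times the mean SD and a ratio of means beyond 1.5 in either direction, was passed by 13.2% of genes, 3.23% higher and 9.98% lower in KO pools. Apoa1 was the single member past it, at 2.09 times the mean SD with a log2 ratio of -2.53, while Apob stood at 1.85 times and Mttp at 0.50 times the mean SD. The direction of the criterion rests on the scaling, since 384 genes were higher and 1187 lower on the deposited scale, 655 and 633 after median-of-ratios rescaling and 595 and 726 after TMM rescaling. The median log2 ratio of all genes moved from -0.15 to 0.01 and -0.02 under these rescalings.

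The 2 KO pools were unlike each other. KO pool 1 had the higher Apob, Mttp and Apoa1 and the lower Fabp2, KO pool 2 the reverse. Goblet cell markers (8 genes such as Muc2 and Tff3) summed to 62440 in KO pool 1 and 334180 in KO pool 2, against 67623 to 148461 in HE pools and 298598 to 348993 in Epcam+ve samples. Colonocyte markers summed to 22868 and 58114 in KO pools and to 53369 to 68503 in HE pools, and all 8 of them were above 0 in each pool. Most of this sum was Krt20 and Car1. Krt20 was 24878 and 31364 in HE pools and 14755 and 11876 in KO pools, above the 4434 and 3822 of Epcam+ve samples. Car1 was 33657 and 13482 in HE pools and 4318 and 35383 in KO pools. Krt20 was the 1 marker of the 8 lower in KO than in HE pools without overlap, and 7 overlapped. The part of these cells in the values of Apob, Apoa1 and Fabp2 was not tested. Without KO pool 1 the log2 fold change of Apob was -1.24 and without KO pool 2 it was -0.25, fits in which the lone pool is assumed to vary like the others. Without KO pool 1 Apob and Apoa1 (-2.93) passed the threshold with 373 genes in all, without KO pool 2 they did not, with 96.

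Of the pathway lists, 0 genes were called in KO against HE pools. Past the criterion of the study were 11 list genes, 9 lower and 2 higher in KO pools. The lower ones included Abcg1, a cholesterol exporter (log2 ratio -1.24), and Lpcat3, which remodels membrane phospholipids (-1.22). Slc27a2, a fatty acid transporter of peroxisomes and the plasma membrane, was higher with a log2 ratio of 1.26. By list these were 3 of 24 tested genes of assembly and export, 4 of 27 of uptake and esterification, 2 of 29 of oxidation, 1 of 18 of cholesterol uptake and 1 of 25 transcription factors, shares that lie on both sides of the 13.2% of all genes.

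The third question was whether the crypt epithelium as a whole differed, in mice without Olfr78 in every tissue and in mice without it in the epithelium. In the Olfr78-GFP line, Apob was 10554 and 12418 in WT crypts and 4924, 4246, 4115, 4281 and 5718 in the 5 KO crypts. All KO values lay below both WT values. The WT mean of 11486 ± 1318 (SD, n = 2) was 2.47 times the KO mean of 4657 ± 671 (SD, n = 5), a log2 fold change of -1.31 ± 0.13 (SE).

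Fabp2 showed the same order with a smaller distance. It was 6330 and 7088 in WT crypts and 4093, 3000, 3481, 3878 and 4518 in KO crypts, again without overlap. The WT mean was 1.77 times the KO mean, a log2 fold change of -0.83 ± 0.14 (SE). Apob and Fabp2 were both past the thresholds for crypts (adjusted p up to 0.2 and a change beyond 1.5-fold), which called 9.48% of 15975 genes, 7.95% higher and 1.53% lower in KO. That split was 1270 higher and 244 lower genes, and 937 and 496 after TMM rescaling, and the total of 1514 genes was 953 without WT library 1 and 546 without WT library 2. Values below WT without overlap were found for 13.1% of genes and values above it for 18.2%. Since the members were chosen with results known, nothing is read from these 2 calls.

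The transfer and exchange partners of Apob did not follow it. Mttp was 94 and 123 in WT and 62 to 128 in KO crypts, and Apoe was 91 and 66 in WT and 50 to 98 in KO crypts, with the KO range reaching beyond WT on both sides for Mttp and for Apoe. Their log2 fold changes were -0.22 ± 0.26 (SE) and -0.15 ± 0.28 (SE). Apoa1 was 14 and 10 in WT crypts and 9, 4, 3, 5 and 73 in KO crypts, under the filter in this comparison.

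Markers of differentiated colonocytes did not share 1 direction. Of the 8 markers, 2 were lower in every KO crypt than in both WT crypts, 2 were higher and 4 overlapped, and all 8 were at 40 or more in each of these libraries. The lower ones were Car1, a carbonic anhydrase, at 105749 and 111936 in WT and 69591 to 83771 in KO, and Guca2a, the guanylin precursor, at 12521 and 10954 in WT and 8683 to 10613 in KO. The higher ones were Car4, a membrane carbonic anhydrase, at 4586 and 3909 in WT and 4709 to 6786 in KO, and Ceacam20 at no more than 2072 in WT and 2530 to 3577 in KO. The sum over the 8 markers was 160286 and 170819 in WT and 116440 to 147688 in KO, and most of it was Car1. The 12 markers of small intestinal enterocytes summed to 4699 and 4758 in WT and to 3079 to 4595 in KO crypts. The largest part was Slc5a1, at 2442 and 2605 in WT and 2005 to 2636 in KO. Of the 12 markers, 8 were at 40 or more in WT and 7 to 9 in KO crypts. Lct, the defining lactase of that tissue, was at 3 to 8 in all 7 libraries. Enpep (456 and 372 in WT, 93 to 338 in KO) and Rbp2 (179 and 206 in WT, 91 to 143 in KO) were lower in KO without overlap. The other markers of this list overlapped. The part of these cells in the values of Apob and Fabp2 was not tested. KO library 1 had 37713 genes above 0, more than the 24929 to 33385 of the other crypt libraries, and without it the log2 fold changes were -1.33 for Apob and -0.86 for Fabp2.

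In the Vil1Cre/+-Olfr78fx line the order was not the same. Apob was 12886, 5350 and 5312 in eControl crypts and 6163 and 7997 in eKO crypts, so that both eKO values lay between the eControl values. Fabp2 was 9614, 4961 and 4631 in eControl and 6434 and 5452 in eKO crypts, likewise inside the eControl range. Over all genes, 7.58% lay higher and 2.79% lower in eKO crypts without overlap. The log2 fold changes were -0.03 ± 0.39 (SE) for Apob and -0.03 ± 0.32 (SE) for Fabp2. At the same thresholds limma called 0 of 15401 genes in this line (0%), with 127 at an unadjusted p under 0.05, edgeR called 0 and DESeq2 6.

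One library set the eControl mean of both genes. Without eControl 1 the log2 fold changes were 0.40 for Apob and 0.31 for Fabp2, with all remaining eControl values below both eKO values. This library also had the highest Car1 of the line, 120418 against 75676 to 100036, and Fabp6 at 462 against 18 to 179. Its Slc26a3 at 10070 and Ceacam20 at 1668 were the second lowest of the 5 libraries. Without the library labelled eKO 2, whose genotype label and Olfr78 value match controls, the values were -0.22 for Apob and 0.09 for Fabp2.

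Mttp was 152, 81 and 90 in eControl and 87 and 171 in eKO crypts, and Apoe was 60, 94 and 76 and 54 and 121, with log2 fold changes of 0.22 ± 0.38 (SE) and 0.10 ± 0.38 (SE). Apoa1 was 86, 6 and 10 in eControl and 3 and 48 in eKO crypts, with 1 high library in each group. Low and scattered values held for the remaining members in the 12 crypt libraries. Cd36 was 32 and 7 in WT, 39, 10, 10, 7 and 5 in KO, 16, 6 and 0 in eControl and 13 and 11 in eKO crypts. Fabp1 was at 2 to 19 in all 12, and Apoa4 had reads in 2 libraries alone, at 6 in eControl 1 and 6 in eKO 2.

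**Figure D3:**
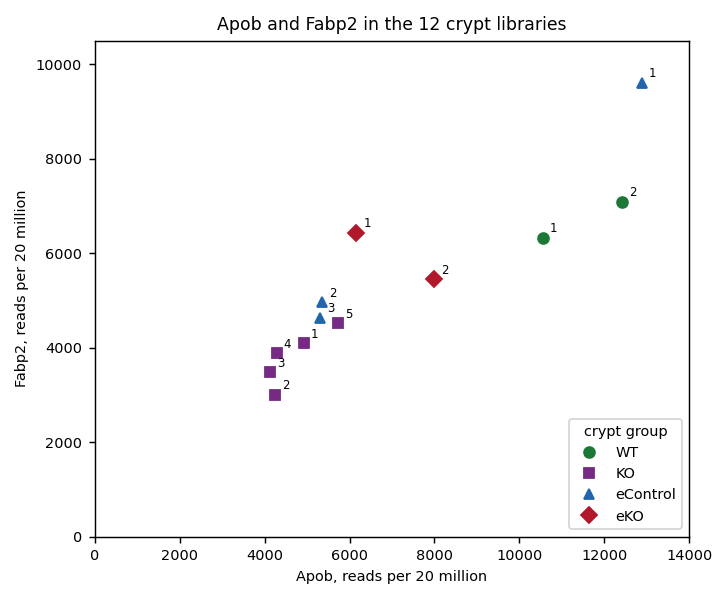
Value of Fabp2 (vertical) against Apob (horizontal), in CP20M on linear axes from 0, in the 12 crypt libraries, with the mouse number beside each point. The 5 KO libraries lie at the lower left, the 2 WT libraries and eControl 1 have Apob at 10554 or more, and the 2 eKO libraries lie between the eControl values on both axes.

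With the 12 crypt libraries in 1 fit and the line as a covariate, the log2 fold change without Olfr78 was -0.72 ± 0.26 (SE) for Apob, -0.47 ± 0.20 (SE) for Fabp2, -0.02 for Mttp and -0.04 for Apoe. The lines were deposited as separate tables scaled in the same way, and 0.0243% of 16447 genes were called (0.00608% higher and 0.0182% lower), 0 members among them. Without the library labelled eKO 1, Apob (-0.80) and Fabp2 (-0.60) were called with 1134 genes in all. The values within each line are given above. The difference of the genotype effect between lines (eKO against eControl minus KO against WT) was 1.28 ± 0.41 (SE) for Apob and 0.80 ± 0.34 (SE) for Fabp2 on the log2 scale, and 0 members were among the 5 genes called for it over all genes (0.0304%). Without eControl 1 and without the library labelled eKO 2, Apob (1.70 and 1.09) and Fabp2 (1.14 and 0.92) were among 616 and 4296 genes called. The WT and eControl libraries were controls of different lines and were not compared.

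Likeness within the groups depended on 1 library for Apob and Fabp2. After the group means were subtracted, Pearson's r over the 12 crypt libraries was 0.88 between Apob and Fabp2, 0.74 between Apob and Mttp, 0.57 between Mttp and Fabp2, -0.05 between Apob and Apoe and -0.42 between Apoe and Fabp2. These are descriptions over libraries that share lines and differ in depth, and eControl 1 was the highest library of its group for Apob, Fabp2 and Mttp. Without it, an alternative added after the data were seen, r over 11 libraries was 0.475 between Apob and Fabp2, 0.723 between Apob and Mttp and 0.274 between Mttp and Fabp2. In the 2 eKO crypts Apob and Fabp2 differed in opposite directions. Among 13113 genes, the most like Apob were Rmi2 (r = 0.93), Ces2a (0.92), a carboxylesterase, and Cyp2j6 (0.91), a cytochrome P450. Those most like Fabp2 were Actr1a (0.94), Fbxw5 and Ntn4 (both 0.93), those most like Mttp were Pitpnm2 (0.94), Vps50 (0.91) and Slc22a5 (0.89), the carnitine transporter, and those most like Apoe were Supt6, Gm37589 and Gm11380 (all 0.94). As the highest of 13113 values over 12 libraries, these r are high by selection, and the ranking was not repeated without eControl 1.

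In KO against WT crypts 9.48% of all 15975 genes tested were called. Of the pathway genes in this comparison, 1 of 31 tested genes of assembly and export was called. Pla2g12b, an endoplasmic reticulum protein that takes part in loading lipid onto apolipoprotein B particles, was 43 and 62 in WT and 14, 13, 24, 12 and 7 in KO crypts (log2 fold change -1.40 ± 0.34 (SE), limma adjusted p = 0.0309). It reached the minimum of 40 only in the 2 WT libraries, so it passed the filter through the group where it was high and the call is given as a description. In the other line Pla2g12b was 89, 38 and 45 in eControl and 59 and 39 in eKO crypts. Lrp8, a receptor for apolipoprotein E, was 88 and 84 in WT and 152, 188, 176, 125 and 80 in KO crypts (log2 fold change 0.63 ± 0.27 (SE), limma adjusted p = 0.167) and was the 1 called of 25 cholesterol and receptor genes. The lowest KO value of Lrp8 lay below both WT values, and under TMM and median-of-ratios rescaling it missed the thresholds (0.53 and 0.57). It also missed them without either WT library or KO library 1, 2 or 3 (0.53 to 0.66, adjusted p 0.216 to 0.492 by limma). None of the 33 uptake, 33 oxidation and 31 transcription factor genes tested was past both thresholds.

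Genes of fatty acid oxidation lay lower in KO crypts by small amounts. The list median was -0.32 against 0.03 for all genes, and 30 of 33 genes had values below 0, against 7437 of all 15975. At an adjusted p of at most 0.2 whatever the fold, a rule added after the data were seen, 20 of the 33 were lower and 2 higher, against 10% and 16.6% of all genes. At the planned thresholds 0 of the 33 were called. The list was compiled with earlier results of these data known, so these counts and the adjusted p below are a description and nothing is read from them. Examples among the lower ones were Cpt2, the inner carnitine palmitoyltransferase (-0.52 ± 0.11 (SE), limma adjusted p = 0.0178), Bdh1 of ketone body synthesis (-0.41 ± 0.09 (SE), adjusted p = 0.0191), and Hadh, a dehydrogenase of the oxidation cycle (-0.44 ± 0.11 (SE), adjusted p = 0.035). Pdk4, which spares glucose when fat is burned, was higher (0.46 ± 0.20 (SE), adjusted p = 0.164). After TMM rescaling 28 were lower and 0 higher, and without WT library 2 none passed. In eKO against eControl crypts 0 of 33 passed and the list median was 0.13. Values above 0 were found for 29 of 33, against 8774 of all 15401 genes. The difference between the lines had a list median of 0.45, and 0 of 33 genes passed the test of that difference.

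Genes of uptake, cholesterol handling and control had small differences between genotypes. In KO against WT crypts the log2 fold changes were -0.45 for Dgat2, -0.37 for Plin2 and -0.40 for Sar1b, all under the fold threshold with adjusted p of 0.0887, 0.141 and 0.0789 by limma. They were -0.15 for Dgat1, -0.04 for Acsl5, -0.23 for Slc27a4 and -0.13 for Mogat2. The sterol exporter Abcg5 had 0.58, while its partner Abcg8 had 0.07 and Scarb1, the receptor of high-density lipoprotein, -0.16. Npc1l1, the cholesterol transporter of enterocytes, stayed at 15 to 101 in all crypt libraries. Hnf4a was 11786 and 12318 in WT and 9538 to 12809 in KO crypts, groups that overlap, and Hnf4g, Creb3l3 and Ppara had log2 fold changes of -0.11, -0.19 and -0.39.

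**Figure D4:**
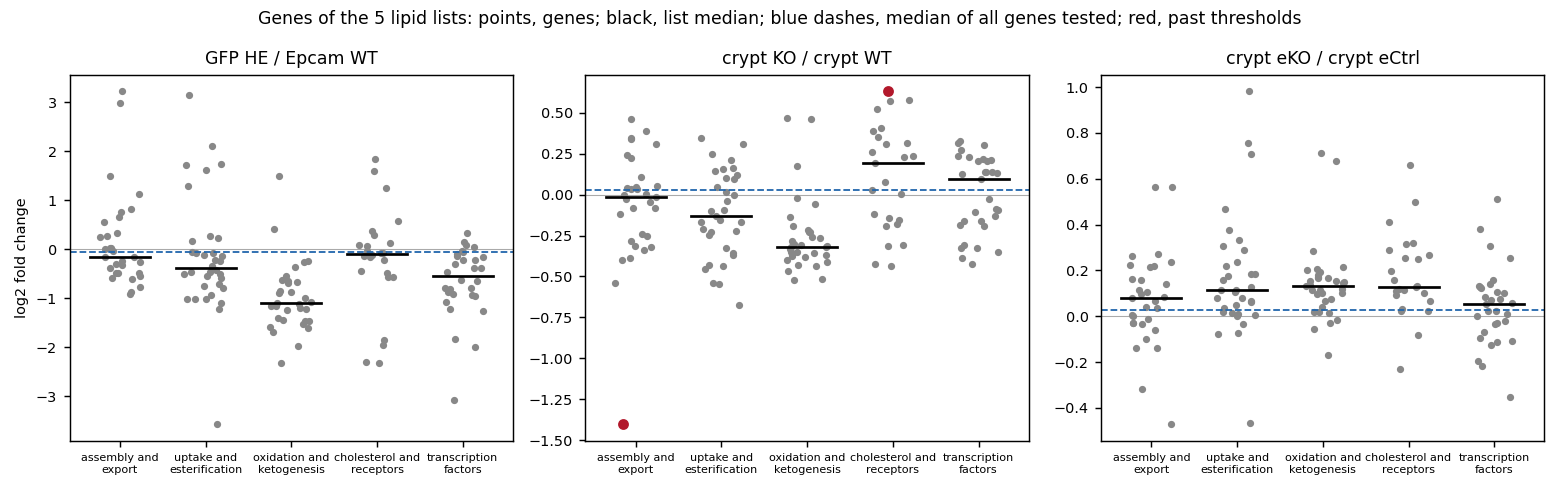
Log2 fold change (vertical, log2(value + 10) scale, a different range in each panel) of the genes of 5 lipid lists in 3 comparisons, with the list median (black bar), the median of all genes tested (blue dashes) and genes past the thresholds in red. The 2 red points in KO against WT crypts are Pla2g12b at -1.40 and Lrp8 at 0.63, and the oxidation list has its median at -1.10, -0.32 and 0.13 in the 3 panels.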

How the data were processed

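RNA-seq values of 18 libraries were analysed, grouped by their titles. The authors aligned reads with STAR (GRCm38), assigned them to genes with HTSeq, and deposited values scaled to 20000000 reads per library and rounded up, a signal in sorted cells and a score in crypts. Scaling leaves between-library differences in RNA composition in place, and rounding up lifts low values. Whole reads were recovered from the size of 1 read. A value counted as whole where a whole number of reads, scaled and rounded up, gave back exactly the deposited value, which held for 99.84% to 99.99% of values.

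Genes at 40 or more in at least 2 libraries compared (above 40 in all 4 pools for KO against HE) were tested with limma 3.58.1, trend fitted, on log2(value + 10), with Benjamini-Hochberg adjustment over all genes tested. edgeR 4.0.16 and DESeq2 1.42.0 on the recovered reads were alternatives, as were other pseudocounts, scalings, filters, a replicate block and leaving out each library. Scripts were tested on simulated data. The Epcam+ve samples come from 1 mouse, so their spread holds no variation between mice, and the fits count them as replicates.

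The members and the gene lists were chosen with earlier results of these data known. Named were all 8 members, list genes past the thresholds, 26 list genes fixed for description (some of which are not reported here) and, by correlation over crypts, the 3 genes most like each member at 40 or more in at least 6 libraries. Of the genes, 99.7% had an exonic length in the annotation, used for values per kilobase.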

Additional observations from a re-analysis of the deposited data

Results flagged for a closer look

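Apoa1, Fabp1 and Cd36 each had 1 KO crypt library far from the other 4, by Dixon's test at its 95% critical value of 0.71 for 5 samples, used here as a screen. For normally distributed values chance gives such a gap in about 1 of 20 groups, and 9 were examined. That rate need not hold for counts of a few reads, as in these groups. Apoa1 was 73 in KO mouse 5, which is 32 reads, against 3 to 9 in the others. Cd36 was 39 in KO mouse 1, which is 14 reads, against 5 to 10, and Fabp1 was 12 in KO mouse 1, which is 4 reads, against 3 to 5. KO mouse 1 is the crypt library with the most genes above 0.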

How the results depend on the processing

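The log2 fold changes of the members kept their sign, over every alternative run, for Apob and Fabp2 in KO against WT crypts (-1.42 to -1.19 and -0.94 to -0.75) and in HE pools against Epcam+ve samples (1.61 to 1.84 and -2.44 to -1.47). In both of those comparisons the groups did not overlap for either gene, so leaving out 1 library could not reverse the sign. In eKO against eControl crypts the log2 fold changes of Apob and Fabp2 spanned 0 (-0.24 to 0.40 and -0.22 to 0.31). The number of genes called was less steady, and the cause was not tested. For HE pools against Epcam+ve samples it was 287, with 77 and 522 at a pseudocount of 1 and 40, 746 by edgeR, 691 by DESeq2, 0 without a trend of the spread, 117 with all sorted libraries in 1 fit and 317 to 1195 with 1 library left out. For KO pools against Epcam+ve samples it was 0, with 31 by edgeR, 238 by DESeq2, 15 without a filter on low values, 33 with all sorted libraries in 1 fit and 153 to 1753 with 1 library left out. For KO against HE pools it was 0, with 8 by DESeq2 and 0 to 373 with 1 library left out. The criterion of the study gave 1571 genes, and 2468 with at least 40 in 2 of the 4 pools. It cannot be computed with 1 pool left out, since a single pool has no SD. For the crypts of both lines it was 4, with 9 by edgeR, 38 by DESeq2, 0 without a trend and 0 to 1134 with 1 library left out. For KO against WT crypts it was 1514, with 854 at a pseudocount of 40, 636 with all crypts in 1 fit and 546 to 1684 with 1 library left out. For eKO against eControl crypts it was 0, with 6 by DESeq2 and 1 to 6 with 1 library left out. For the difference between lines it was 5, with 3 at a pseudocount of 1 and without a filter, 66 by DESeq2 and 2 to 4296 with 1 library left out.

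Libraries of different groups share numbers in their titles. Deviations of same-numbered libraries from their group means correlated by -0.16 between HE and KO pools, 0.03 and 0.02 between Epcam+ve samples and HE or KO pools, and 0.06 and -0.10 between WT and KO crypts. Between eControl and eKO crypts the correlations were 0.59 and 0.36, so same-numbered libraries of that line deviated together. The 2 eKO libraries deviate from their mean by equal and opposite amounts, so these correlations are not independent of each other. Libraries with different numbers were not compared. The titles state no pairing, and the numbers were not taken as pairs in the main fits. A replicate block gave 523, 194, 0, 27, 1555, 13 and 50 genes in the order above, and 1495 past the criterion, and under it Apoa1 was called in HE pools against Epcam+ve samples (log2 fold change 2.35). With the HE and KO pools paired crosswise, an alternative added after the data were seen, 85 genes, Apoa1 among them (-2.38), were called and 1742 passed the criterion. With few reads in sorted cells, Apoe, Apoa4, Fabp1 and Cd36 are at or near the value of single reads there.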
